A study of Mus musculus with 9 samples.

Results

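The mitosis and spindle genes described here are 44 named genes of the later cell cycle: cyclins and kinases of mitotic entry, the chromosomal passenger complex, the spindle checkpoint, mitotic motors, spindle and chromosome proteins, and cytokinesis factors. The list is one of names, with no threshold on signals, and it was drawn up with earlier results of these data known. Ccnb1 and Cdca8 were not in the platform annotation used here, which left 42 of 12393 annotated genes. Of these 42, 39 reached the mean log2 signal required for testing, 4.979 (the 40th percentile over genes), as did 7436 genes in all. Nek2, Cenpe and Anln were below it and were not tested.

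RNA came from mouse CD4+CD25+ cells, the surface phenotype used to isolate regulatory T cells, which were collected by magnetic separation. It was measured on 9 Affymetrix arrays, 3 for each genotype: wild type C57BL6 mice, mice with Sirt1 conditionally deleted by CD4 cre recombinase (CD4-cre), and mice with the same gene deleted by Foxp3 cre recombinase (Foxp3-cre). The Sirt1 protein is a deacetylase that consumes NAD, and the series asks how its loss alters regulatory T cells. No treatment is named, and all 3 groups carry the same strain label. A CD4-driven Cre acts in T cells generally, also before they become regulatory T cells, whereas a Foxp3-driven Cre acts once Foxp3 is expressed. The age of the animals, the deleted part of Sirt1, the kind of Foxp3 allele that carries Cre, and whether wild type carried Cre or a loxP-flanked allele are all not stated in the labels. Each group is described as 3 independent samples without naming separate animals, so p-values reflect only how these samples vary, part of which may be technical.

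Of the 9 arrays, wild type replicate 2 was the outlying one. Over all probe sets it correlated with the rest at 0.982 to 0.987, whereas the rest correlated at 0.992 or more, and its 5' minus 3' log2 signal, a measure of RNA integrity, was -1.53 for beta-actin against -0.68 to -0.45. The probe set of Sirt1 read 7.91, 6.77 and 7.90 in wild type, 7.69, 7.59 and 7.59 with CD4-cre and 7.66, 7.54 and 7.47 with Foxp3-cre. Over all 9 arrays it did not separate the genotypes (0.03, SE 0.26, limma adjusted p = 0.958 in Foxp3-cre; 0.10, SE 0.26, adjusted p = 0.882 in CD4-cre). Without wild type replicate 2, the other wild type arrays lay above all 6 knockout arrays, with differences of -0.35 in Foxp3-cre (SE 0.07, adjusted p = 0.0301) and -0.28 in CD4-cre (SE 0.07, adjusted p = 0.0730). Whether this probe set lies in the deleted part is not stated, and the groups are named as labelled. The mean of 10 T cell markers was 10.60 to 10.77 on all 9 arrays. Foxp3, which defines regulatory T cells, read 9.39 ± 0.26 with the wild type genotype and 9.66 ± 0.04 with CD4-cre (SD, n = 3), but 2.67, 3.38 and 2.83 with Foxp3-cre, where this marker of the labelled cell type was near the floor of the array. Of the other 10 tested regulatory T cell markers, Tnfrsf9 fell in Foxp3-cre by 0.54 and 9 did not pass there, with differences from -0.12 to 0.41. Tnfrsf9 also fell in CD4-cre, by 0.45 (limma adjusted p = 0.0382). The mean of the 10 markers without Foxp3 was 8.96 to 9.11 on all 9 arrays.

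Mitosis separates the copied chromosomes between daughter cells. Cyclin-dependent kinase activity starts it, microtubule motors build the spindle, and the spindle checkpoint holds back the anaphase-promoting complex or cyclosome (APC/C), a ubiquitin ligase, until every chromosome is attached. Transcripts of these proteins accumulate together in late cell cycle phases and are low in resting cells. Their shared timing is known to run through the DREAM and MuvB complexes, which bind the cell cycle genes homology region (CHR, core TTTGAA), and NF-Y, which binds CCAAT boxes. In lymphoid tissue the regulatory T cell pool holds a dividing fraction.

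Promoter sequences are shown because most members were higher together in Foxp3-cre and the CHR core and CCAAT box are known elements of this gene class. RefSeq promoter windows of the assembly GRCm38.p6, 250 bases before to 50 bases after each gene start, were held for 34 of the 42 members, as 36 windows. The sequences given are those of the 5 changed members with the largest rise in Foxp3-cre that have a window, and of Ccnb2, the cyclin B member measured. Capitals mark TTTGAA or its reverse complement TTCAAA, and CCAAT or its reverse complement ATTGG. The windows are Ttk at chr9:83834439-83834738 (plus strand), Kif11 at chr19:37376132-37376431 (plus), Ube2c at chr2:164769679-164769978 (plus), Nusap1 at chr2:119618048-119618347 (plus), Cdca3 at chr6:124829926-124830225 (plus) and Ccnb2 at chr9:70421505-70421804 (minus), each written 5' to 3' in the direction of the gene.
Ttk: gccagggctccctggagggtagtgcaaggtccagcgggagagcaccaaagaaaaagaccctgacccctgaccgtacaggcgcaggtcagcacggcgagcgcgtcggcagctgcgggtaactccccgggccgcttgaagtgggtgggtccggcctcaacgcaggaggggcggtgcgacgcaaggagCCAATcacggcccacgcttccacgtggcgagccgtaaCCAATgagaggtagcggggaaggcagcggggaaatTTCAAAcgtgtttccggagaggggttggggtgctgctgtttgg
Kif11: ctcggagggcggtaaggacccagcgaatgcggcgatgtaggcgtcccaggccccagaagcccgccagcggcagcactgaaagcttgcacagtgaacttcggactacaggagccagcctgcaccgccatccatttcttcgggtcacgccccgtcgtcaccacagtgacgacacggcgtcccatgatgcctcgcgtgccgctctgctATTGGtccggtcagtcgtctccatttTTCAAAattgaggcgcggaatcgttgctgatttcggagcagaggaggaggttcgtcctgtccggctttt
Ube2c: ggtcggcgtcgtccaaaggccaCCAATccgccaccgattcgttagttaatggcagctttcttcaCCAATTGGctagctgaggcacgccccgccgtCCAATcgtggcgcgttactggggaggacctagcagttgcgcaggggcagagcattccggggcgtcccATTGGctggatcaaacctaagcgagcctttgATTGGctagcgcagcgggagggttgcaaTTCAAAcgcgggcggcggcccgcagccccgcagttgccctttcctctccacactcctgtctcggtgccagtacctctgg
Nusap1: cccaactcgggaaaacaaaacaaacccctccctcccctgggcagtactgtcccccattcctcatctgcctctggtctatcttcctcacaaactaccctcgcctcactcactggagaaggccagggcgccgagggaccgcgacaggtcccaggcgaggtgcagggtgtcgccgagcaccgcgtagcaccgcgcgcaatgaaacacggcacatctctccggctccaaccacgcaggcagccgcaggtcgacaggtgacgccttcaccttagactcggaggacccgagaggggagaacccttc
Cdca3: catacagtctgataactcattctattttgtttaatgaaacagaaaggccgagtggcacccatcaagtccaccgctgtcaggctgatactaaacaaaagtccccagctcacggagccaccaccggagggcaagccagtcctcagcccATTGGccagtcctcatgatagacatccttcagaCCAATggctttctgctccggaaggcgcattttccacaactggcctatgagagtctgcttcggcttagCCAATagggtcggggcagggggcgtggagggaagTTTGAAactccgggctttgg
Ccnb2: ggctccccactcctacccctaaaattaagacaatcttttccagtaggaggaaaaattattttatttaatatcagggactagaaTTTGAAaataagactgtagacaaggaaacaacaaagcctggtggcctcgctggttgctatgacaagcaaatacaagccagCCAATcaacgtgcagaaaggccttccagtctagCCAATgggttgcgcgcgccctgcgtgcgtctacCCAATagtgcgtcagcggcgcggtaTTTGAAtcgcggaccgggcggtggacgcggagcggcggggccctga

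In these windows the CHR core lay close to the gene start. Its centre was at 10 bases after the start in Ttk, -16 in Kif11, -26 in Ube2c, 33 in Cdca3 and 7 in Ccnb2, which holds another at -164. Nusap1 held neither motif. Over all member windows, TTTGAA on either strand was found in 26 of 36 (72.2%), against 17.9% of all 32851 RefSeq promoter windows of this length and 11.8% of the 7891 windows of genes tested on the arrays. Within 50 bases of the start it was in 63.9% of member windows and 3.10% of those of tested genes. CCAAT on either strand was in 28 of 36 (77.8%), against 37.4% of all windows and 37.2% of those of tested genes. Both motifs occurred in 24 member windows (66.7%) and in 4.61% of windows of tested genes, and 6 member windows had neither. The motifs shared no bases with each other in any member window. An E2F site, searched as GGCGGGAA on both strands, was in 0 of 36 member windows, 2.19% of all windows and 3.97% of those of tested genes. With shares this low, 0 of 36 is close to the background. The E2F site was in 7 of 41 windows (17.1%) of DNA replication genes, whose windows held the CHR core in the same share, 17.1%. A match is a run of letters and not evidence of binding.

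**Figure D1:**
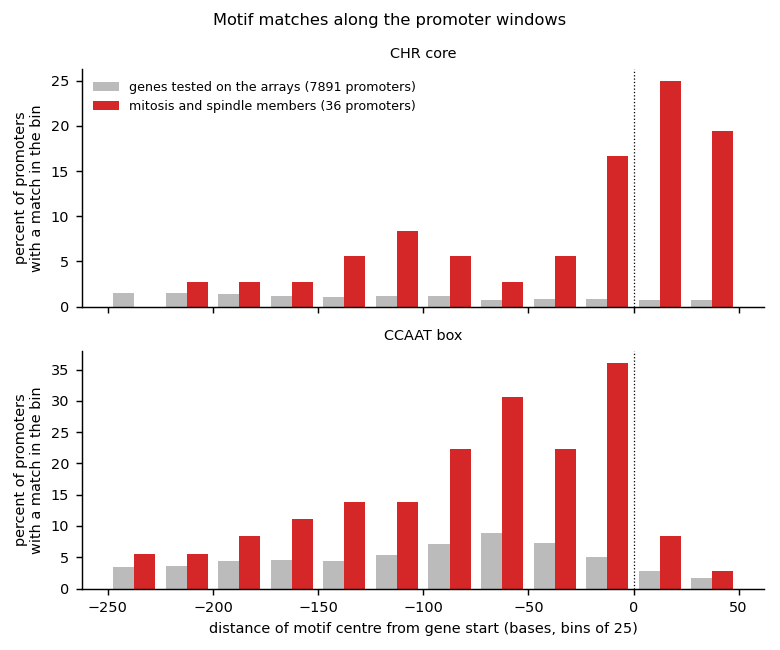
Share of promoter windows with a CHR core (upper) or CCAAT box (lower) in each bin of 25 bases, by distance of the motif centre from the gene start, for 36 windows of mitosis and spindle genes (red) and 7891 windows of genes tested on the arrays (grey). CHR matches of the members gather in the bins next to the start, at 16.7% of windows or more from 25 bases before it to 50 bases after it, against under 1% of windows of tested genes in the same bins.

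In Foxp3-cre against wild type, 18 of the 39 tested members rose and 0 fell (limma, Benjamini-Hochberg adjusted p under 0.05 over all 7436 genes), where 1.69% of all tested genes rose. At an unadjusted p under 0.05 there were 37 members, all of them higher in Foxp3-cre, as were 10.5% of all tested genes. With the replicate number as a block, 29 members rose, beside 2.89% of all genes. For 37 of 39 members all 3 Foxp3-cre arrays lay above all 3 wild type arrays, against 11.1% of all tested genes. The median change was 0.88 on the log2 scale, or 1.84-fold, with quartiles of 0.74 and 1.20, beside a median of 0.01 over all genes tested. Changes ran from -0.02 for Smc4 to 1.34 for Ttk, and 38 of 39 were above 0. In these bulk samples, more cells in mitosis and more of these transcripts per cell cannot be told apart. A mean over all arrays decided which genes were tested, so a gene high only in Foxp3-cre could enter through that group. For 0 of the 39 members was the mean over the other 6 arrays below the threshold, although the wild type means of Ttk and Ect2 were. Below, changes are differences of mean log2 signals in Foxp3-cre minus wild type with their standard error (SE), array values are log2 signals in order of replicates 1, 2 and 3, and every adjusted p is limma's.

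**Figure D2:**
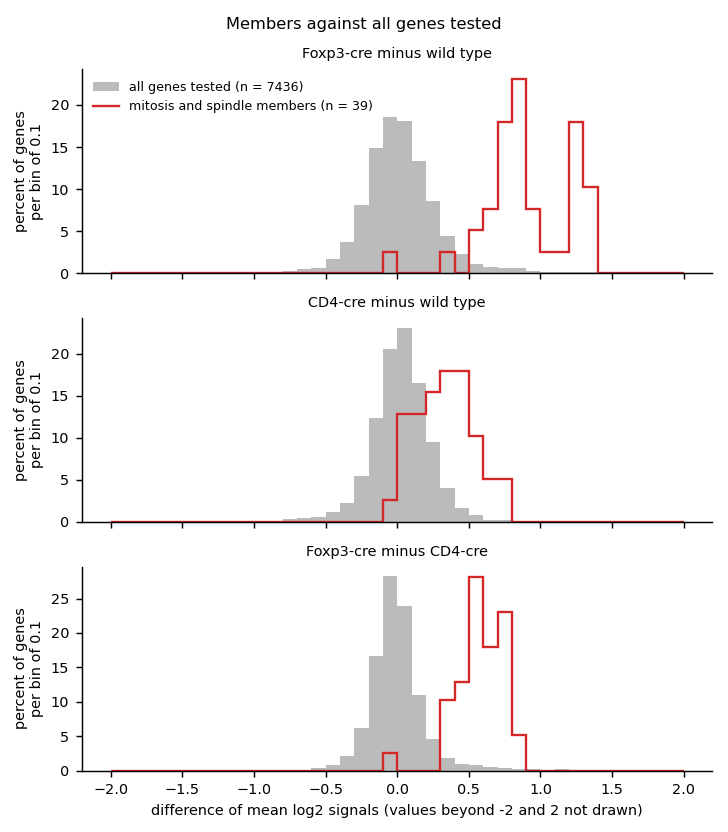
Distribution of the difference of mean log2 signals (bins of 0.1) for all 7436 genes tested (grey) and the 39 tested mitosis and spindle genes (red line), in each of the 3 comparisons. The members lie to the right of the bulk of genes, with medians of 0.88 in Foxp3-cre minus wild type, 0.33 in CD4-cre minus wild type and 0.58 in Foxp3-cre minus CD4-cre.

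Among the cyclins and kinases of mitotic entry, 4 of 9 tested members rose, and all 9 were fully separated from wild type. Cdca3, an adaptor that promotes mitotic entry, read 6.75, 6.33 and 6.27 on the wild type arrays, 6.83, 6.88 and 6.82 with CD4-cre and 8.08, 7.37 and 7.58 with Foxp3-cre. Its Foxp3-cre arrays were above all others, its CD4-cre arrays lay narrowly above wild type, and it rose by 1.23 (SE 0.18), or 2.34-fold (adjusted p = 0.0129). Ccnb2, cyclin B2, a partner of Cdk1, read 6.91, 6.14 and 6.73 on the wild type arrays, 7.18, 7.28 and 7.14 with CD4-cre and 8.34, 7.36 and 7.71 with Foxp3-cre. The genotypes did not overlap, and Ccnb2 rose by 1.21 (SE 0.25), or 2.31-fold (adjusted p = 0.0364). Ccna2, cyclin A2, which acts in S phase and at mitotic entry, read 7.84, 7.14 and 7.38 on the wild type arrays, 7.75, 7.90 and 7.72 with CD4-cre and 9.09, 8.14 and 8.46 with Foxp3-cre. Here CD4-cre overlapped wild type while Foxp3-cre lay above both, with a rise of 1.11 (SE 0.24), or 2.16-fold (adjusted p = 0.0412). Cks2, a small Cdk-binding subunit, read 9.42, 9.32 and 9.32 on the wild type arrays, 9.65, 9.71 and 9.71 with CD4-cre and 10.37, 9.94 and 9.85 with Foxp3-cre. The genotypes were again separated, at the smallest rise among the called members, 0.70 (SE 0.13), or 1.63-fold (adjusted p = 0.0235). The other 5 tested members were between 0.76 and 1.10 higher without passing the threshold (adjusted p = 0.0518 to 0.0955). They were Cdk1 itself (1.10), the mitotic kinases Plk1 and Aurka (both 0.76), and the kinases Pbk (0.85) and Melk (0.88). The kinase Nek2, below the signal threshold, read 4.73, 4.65 and 4.52 on the wild type arrays, 4.82, 4.82 and 4.82 with CD4-cre and 5.53, 4.83 and 4.92 with Foxp3-cre.

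The chromosomal passenger complex places Aurora B kinase at centromeres and later at the spindle midzone. Of its 3 tested members 1 rose, Birc5 or survivin, which targets the complex to chromosomes. Birc5 read 7.54, 7.21 and 7.30 on the wild type arrays, 7.64, 7.58 and 7.50 with CD4-cre and 8.86, 7.94 and 8.14 with Foxp3-cre, so that CD4-cre overlapped wild type and Foxp3-cre lay above both. The rise was 0.96 (SE 0.21), or 1.95-fold (adjusted p = 0.0412). Aurkb, the kinase, read 5.90, 5.04 and 4.95 on the wild type arrays, 5.90, 5.92 and 5.82 with CD4-cre and 7.32, 6.13 and 6.37 with Foxp3-cre. Its Foxp3-cre arrays were the highest, wild type replicate 1 stood well above the other wild type arrays, and the difference of 1.31 (SE 0.32), or 2.48-fold (adjusted p = 0.0561) did not pass. Incenp, the scaffold, had its highest wild type signal on replicate 2 (9.44), above Foxp3-cre replicates 2 and 3, and did not pass either at 0.31 (SE 0.21), or 1.24-fold (adjusted p = 0.403).

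Of 6 tested genes of the spindle checkpoint and of APC/C activity, 3 rose. Ttk, the kinase at the head of the checkpoint, had the largest change of all members and read 5.28, 4.05 and 4.74 on the wild type arrays, 5.42, 5.42 and 5.40 with CD4-cre and 6.51, 5.78 and 5.80 with Foxp3-cre. The 3 genotypes did not overlap, wild type was widely spread with replicate 2 lowest, and Ttk rose by 1.34 (SE 0.29), or 2.53-fold (adjusted p = 0.0412). Mad2l1, or MAD2, the checkpoint protein that binds Cdc20, read 7.96, 7.52 and 7.68 on the wild type arrays, 8.15, 8.14 and 8.07 with CD4-cre and 9.003, 8.31 and 8.42 with Foxp3-cre. All 3 genotypes were separated, and it rose by 0.86 (SE 0.18), or 1.81-fold (adjusted p = 0.0354). Ube2c, the ubiquitin-conjugating enzyme of the APC/C, read 8.32, 7.62 and 7.99 on the wild type arrays, 8.52, 8.62 and 8.42 with CD4-cre and 9.62, 8.85 and 9.19 with Foxp3-cre. Its Foxp3-cre arrays stood above every CD4-cre array and these above wild type, with a rise of 1.25 (SE 0.21), or 2.37-fold (adjusted p = 0.0206). The checkpoint kinases Bub1 (1.31, adjusted p = 0.0538) and Bub1b (0.94, adjusted p = 0.0552) and the APC/C activator Cdc20 (0.72, adjusted p = 0.0561) were separated from wild type but did not pass.

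Of the 6 tested mitotic kinesins 3 rose. Kif11, which pushes spindle poles apart, read 6.01, 5.58 and 5.47 on the wild type arrays, 6.16, 6.15 and 6.14 with CD4-cre and 7.45, 6.55 and 6.87 with Foxp3-cre. Its genotypes did not overlap, its CD4-cre arrays were nearly equal, and Kif11 rose by 1.27 (SE 0.21), or 2.41-fold (adjusted p = 0.0196). Kif23, a motor of the central spindle, read 6.64, 6.19 and 6.50 on the wild type arrays, 6.45, 6.71 and 6.54 with CD4-cre and 7.37, 7.004 and 7.26 with Foxp3-cre. CD4-cre lay within the range of wild type or just above it, whereas Foxp3-cre was above both, at a rise of 0.77 (SE 0.14), or 1.70-fold (adjusted p = 0.0235). Kif4, a chromosome-bound kinesin, read 5.48, 5.09 and 5.45 on the wild type arrays, 5.48, 5.57 and 5.54 with CD4-cre and 6.65, 5.87 and 5.98 with Foxp3-cre. CD4-cre lay just above wild type and Foxp3-cre clearly above both, and Kif4 rose by 0.83 (SE 0.19), or 1.78-fold (adjusted p = 0.0485). Kif20a, a cytokinesis motor, stood at 1.33 without passing (adjusted p = 0.0518), and so did Kif2c, a microtubule depolymerase, at 0.68 and the chromokinesin Kif22 at 0.59 (adjusted p = 0.0602 for both). Cenpe, a kinetochore motor below the signal threshold, read 3.93, 3.64 and 3.67 on the wild type arrays, 3.94, 3.77 and 3.94 with CD4-cre and 4.95, 4.41 and 4.07 with Foxp3-cre.

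Of the 6 tested spindle assembly and microtubule proteins 3 rose. Stmn1, or stathmin, which binds tubulin and destabilises microtubules, had the smallest adjusted p of all members and read 9.47, 9.44 and 9.40 on the wild type arrays, 9.84, 9.84 and 9.97 with CD4-cre and 10.76, 10.16 and 10.35 with Foxp3-cre. The wild type arrays were close together, the genotypes did not overlap, and Stmn1 rose by 0.99 (SE 0.13), or 1.98-fold (adjusted p = 0.00960). Nusap1, a microtubule-bundling protein of the spindle, read 7.66, 7.07 and 7.23 on the wild type arrays, 7.80, 7.87 and 7.77 with CD4-cre and 9.01, 8.13 and 8.50 with Foxp3-cre. It showed the same order of genotypes and rose by 1.23 (SE 0.21), or 2.34-fold (adjusted p = 0.0212). Prc1, which crosslinks microtubules of the midzone, read 6.42, 6.13 and 6.39 on the wild type arrays, 6.51, 6.60 and 6.63 with CD4-cre and 7.67, 6.85 and 7.10 with Foxp3-cre. CD4-cre was slightly above wild type and Foxp3-cre well above both, and Prc1 rose by 0.90 (SE 0.18), or 1.86-fold (adjusted p = 0.0337). The spindle assembly factor Tpx2 (0.88, adjusted p = 0.0979), Tacc3, which stabilises spindle microtubules (0.75, adjusted p = 0.0752), and the hyaluronan-binding spindle protein Hmmr (0.63, adjusted p = 0.118) were separated from wild type but did not pass.

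Of the 7 tested proteins of chromosome structure and centromere 2 rose. Top2a, the topoisomerase that untangles sister chromatids, read 8.72, 8.12 and 8.41 on the wild type arrays, 8.89, 8.96 and 8.85 with CD4-cre and 10.13, 9.17 and 9.56 with Foxp3-cre. Foxp3-cre lay above CD4-cre and CD4-cre above wild type, with a rise of 1.20 (SE 0.22), or 2.30-fold (adjusted p = 0.0258). Ncaph, a condensin I subunit, read 6.32, 6.23 and 6.30 on the wild type arrays, 6.75, 6.75 and 6.75 with CD4-cre and 7.63, 6.97 and 6.89 with Foxp3-cre. Its 3 CD4-cre values were identical, an SD of 0 that enters the shared estimate of the spread. The genotypes did not overlap, Foxp3-cre replicate 1 stood high, and Ncaph rose by 0.88 (SE 0.17), or 1.84-fold (adjusted p = 0.0265). Identical values were not particular to Ncaph. They occurred on all 3 CD4-cre arrays for Nek2 and on some CD4-cre arrays for Kif22, Cks2, Plk1, Aurka and Cdc20. The condensin subunits Ncapd2 (0.69, adjusted p = 0.0660) and Smc2 (0.86, adjusted p = 0.105), the centromeric histone Cenpa (0.55, adjusted p = 0.0933) and the proliferation marker Mki67 (0.73, adjusted p = 0.0914) were separated but did not pass. Smc4, which pairs with Smc2 in condensin, was the member of the 39 with a difference below 0. It read 11.31, 10.91 and 11.45 on the wild type arrays, 11.27, 11.24 and 11.22 with CD4-cre and 11.13, 11.24 and 11.23 with Foxp3-cre, a difference of -0.02 (SE 0.12, adjusted p = 0.922), and its other probe sets stood at -0.21 and -0.11.

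Of the cytokinesis factors, both tested genes rose. Racgap1, which forms the centralspindlin complex with Kif23, read 6.37, 6.06 and 6.25 on the wild type arrays, 6.46, 6.56 and 6.53 with CD4-cre and 7.43, 6.80 and 7.01 with Foxp3-cre. Its genotypes did not overlap, and it rose by 0.86 (SE 0.15), or 1.81-fold (adjusted p = 0.0217). Ect2, the exchange factor that activates RhoA at the cleavage site, read 5.16, 4.38 and 4.70 on the wild type arrays, 5.55, 5.35 and 5.34 with CD4-cre and 6.43, 5.58 and 5.85 with Foxp3-cre. CD4-cre and Foxp3-cre were both above wild type, CD4-cre replicate 1 (5.55) came close to Foxp3-cre replicate 2 (5.58), and Ect2 rose by 1.21 (SE 0.23), or 2.32-fold (adjusted p = 0.0289). Anln, the actin-binding scaffold of the contractile ring, was below the signal threshold and read 4.36, 3.60 and 4.22 on the wild type arrays, 4.29, 4.56 and 4.56 with CD4-cre and 5.63, 4.75 and 5.08 with Foxp3-cre.

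**Figure D3:**
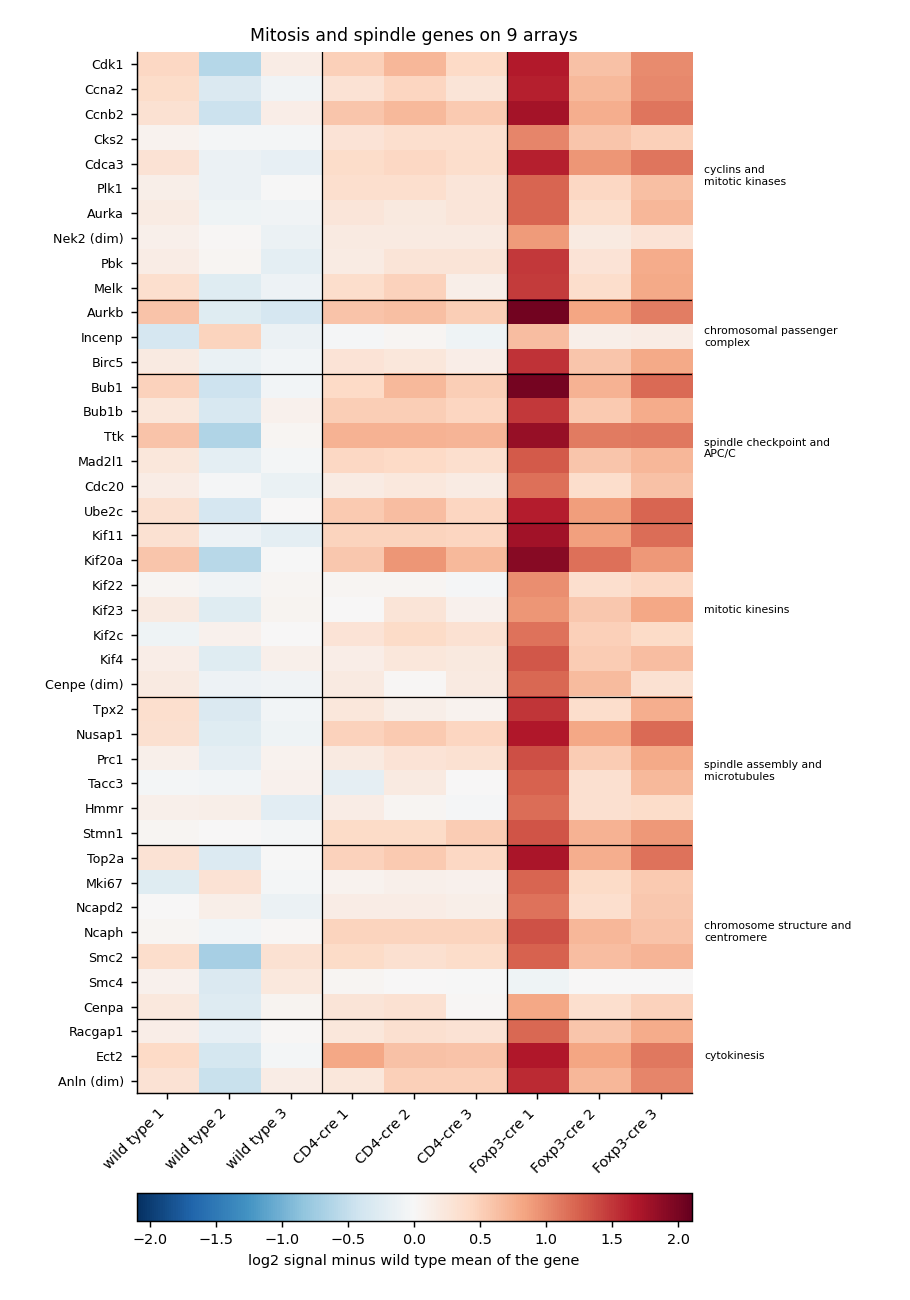
Log2 signal minus the gene's wild type mean for the 42 annotated mitosis and spindle genes (rows, grouped by role; dim marks the 3 genes below the signal threshold) on the 9 arrays (columns). Foxp3-cre replicate 1 is the highest column, CD4-cre is uniform and pale, wild type replicate 2 is low for most genes, and Smc4 is flat across genotypes.

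The members also shared an order of arrays within genotypes. Foxp3-cre replicate 1 was the highest of the 9 arrays for 38 of 39 members, against 18.8% of all tested genes, and Foxp3-cre replicate 2 was the lowest of its group for 34 (31.9% of all genes). In wild type, replicate 2 was the lowest of its group for 28 members, against 49.4% of all genes, and the highest for 5 (35.4%). The mean of the 39 members was 7.05, 6.65 and 6.82 on the wild type arrays, 7.16, 7.22 and 7.14 with CD4-cre, and 8.20, 7.42 and 7.62 with Foxp3-cre. Arrays of a genotype also lay at unequal distances from each other, which was not tested. The median range of a member over 3 arrays was 0.10 in CD4-cre, 0.50 in wild type and 0.82 in Foxp3-cre, where it was 0.12, 0.34 and 0.17 over all genes. The model used 1 estimate of the spread for all groups, and the count of calls depended on the arrays in it. It was 25 without Foxp3-cre replicate 2, 22 without wild type replicate 1, 2 without wild type replicate 3, 4 without Foxp3-cre replicate 3, and 7, 7 and 9 without CD4-cre replicates 1, 2 and 3. It was 16 without wild type replicate 2, and 17 without Foxp3-cre replicate 1, the highest array, where the median change was 0.66. With wild type and Foxp3-cre alone in the model it was 0, beside 0.0269% of all genes that rose. There 37 members were at an unadjusted p under 0.05 (7.01% of all genes, higher). With array weights it was 36, beside 8.74% of all genes. Cdca3 and Stmn1 passed in all 9 fits that left out an array. Over those fits the median change stayed between 0.66 and 1.08, and 0.417% to 3.05% of all genes rose.

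More than 1 probe set was present for 21 members. Of 33 other probe sets 18 were above the signal threshold, and 16 of these were higher in Foxp3-cre, with the Smc4 sets as the exceptions. Among the called members, the 7 other sets above the threshold each showed at least 50% of the change of the set used, for example 1.16 for Kif11, 1.02 for Ccna2, 1.06 for Cks2 and 0.72 for Stmn1. Called members had 7 further sets below the threshold. These stood at -0.07 and -0.08 for Cdca3, -0.04 and 0.08 for Kif23, -0.01 for Top2a, 0.22 for Nusap1 and 1.005 for Kif11. Cdca3, Kif23, Top2a and Nusap1 had no other set above the threshold. Of the sets above the threshold for members not called, 1 each for Tacc3, Hmmr and Cdc20 showed under 50% of the change: 0.16 beside 0.75, 0.29 beside 0.63 and 0.35 beside 0.72. The Hmmr set was also lower than wild type in CD4-cre, at -0.06 beside 0.06. A second set stood at 0.62 for Tacc3 and at 0.76 for Cdc20.

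In CD4-cre against wild type, 0 of 39 members passed limma's threshold, while 0.229% of all tested genes rose. At an unadjusted p under 0.05, 10 members were higher, or 25.6%, against 7.38% of all genes. Weighting arrays by their quality in limma gave 12 members and 8.43% of all genes. The direction was mostly upward: 38 of 39 members were higher, by a median of 0.33 or 1.26-fold beside 0.03 over all genes, and 21 were fully separated above wild type, against 11.9% of all genes. The checkpoint kinase Ttk had the largest difference, 0.73 (SE 0.29, adjusted p = 0.305), followed by Kif20a at 0.72 and Ect2 at 0.67. Stmn1 had the smallest adjusted p, 0.193, at 0.44, but its other probe set, also above the signal threshold, stood at 0.04. Incenp was lowest, at -0.02. Of the 18 members that rose in Foxp3-cre, 15 were separated from wild type in CD4-cre and Ccna2, Birc5 and Kif23 were not. The 18 were called against the same wild type arrays, so this count is not independent of that choice. Without wild type replicate 2 the median difference was 0.24, and 1 member was at an unadjusted p under 0.05, beside 10% of all genes that were higher. Without Foxp3-cre replicate 1, which enters through the shared estimate of the spread, Ncaph passed, beside 0.269% of all genes that rose. Its 3 CD4-cre values were identical.

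Foxp3-cre and CD4-cre were compared directly to ask whether the knockouts differ, since each change against wild type uses the same 3 wild type arrays. In limma 0 members passed, and 0% of all tested genes rose. At an unadjusted p under 0.05, 29 members were higher, against 5.14% of all genes. With array weights 15 members passed, beside 4.69% of all genes. All 3 Foxp3-cre arrays lay above all 3 CD4-cre arrays for 35 of 39 members, against 10.9% of all genes. The median difference was 0.58, or 1.49-fold, beside -0.02 over all genes, and was 0.33 without Foxp3-cre replicate 1. Cdca3 had the largest difference at 0.83 and, with Kif23 at 0.64, the smallest adjusted p, 0.178. Cdk1, Melk and Kif20a overlapped between the knockouts, as did Smc4. Without wild type replicate 2 in the model, 1 member passed, Kif23, beside 0.336% of all genes that rose. For 37 of 39 members the CD4-cre mean lay above the wild type mean and below the Foxp3-cre mean, against 23.8% of all tested genes in this rising order.

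**Figure D4:**
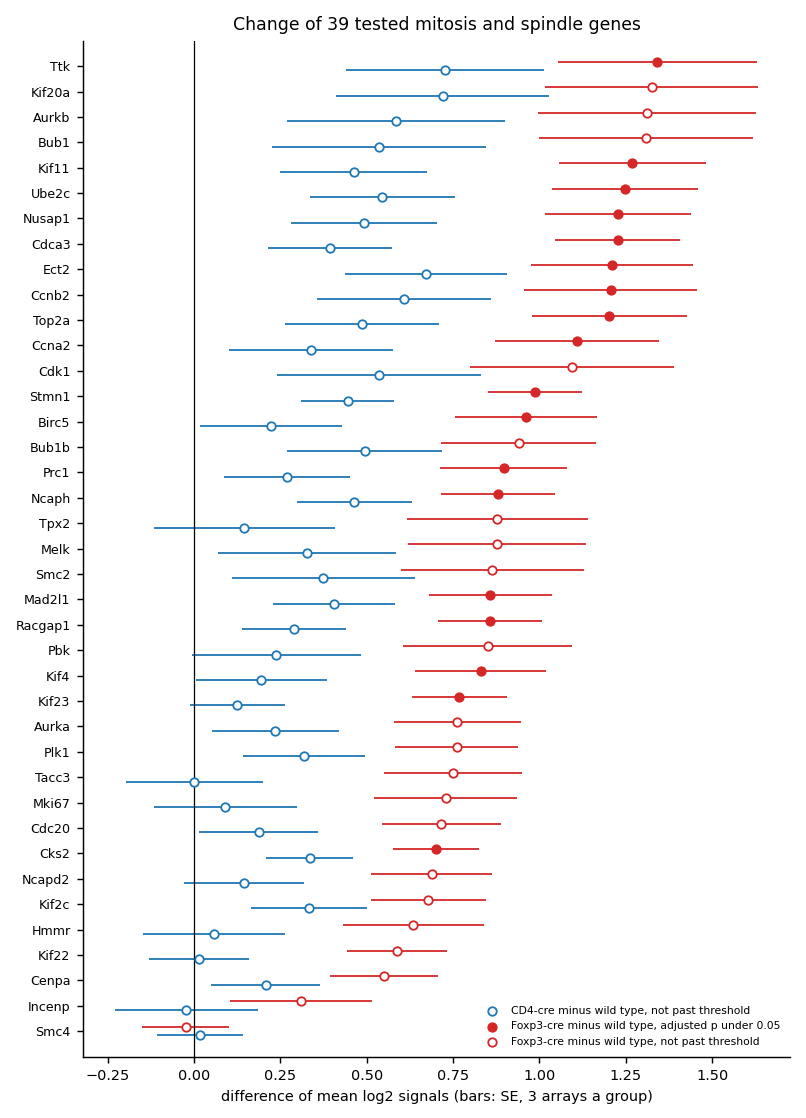
Difference of mean log2 signals from wild type for the 39 tested members, in Foxp3-cre (red; filled where the adjusted p was under 0.05) and CD4-cre (blue), with bars of 1 SE from the fit over 3 arrays a group. Foxp3-cre differences lie to the right of the CD4-cre ones for all members but Smc4, and no CD4-cre point is filled.

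Mitosis genes outside the list were also mostly higher in Foxp3-cre. Of 36 tested, 35 were above wild type by a median of 0.54, and 11 rose and 0 fell: Ccnf, Cdc25b, Cenpf, Cenpk, Cep55, Ckap2, Cks1b, Hmgb2, Lmnb1, Ncapg2 and Shcbp1. Cep55, an abscission factor, rose by 1.42 (SE 0.29, adjusted p = 0.0329), the condensin II subunit Ncapg2 by 1.24, the cytokinesis protein Shcbp1 by 1.03 and the kinetochore protein Cenpf by 0.996. The CHR core was in 21 of 38 promoter windows (55.3%) of that list. Subunits and regulators of the APC/C, the ligase itself, were near 0. Of 12 tested, 0 passed in limma and 2 were at an unadjusted p under 0.05, the coactivator Fzr1 at 0.37 and the subunit Anapc7 at -0.31, and the median was 0.08. Their promoter windows held the CHR core in 2 of 12 cases.

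DNA replication genes had a median of 0.55, with 40 of 40 tested genes higher and 4 that rose: the polymerase subunit Pola1 by 1.05 (SE 0.20), the ribonucleotide reductase subunits Rrm2 by 0.83 (SE 0.17) and Rrm1 by 0.79 (SE 0.16), and the replication licensing inhibitor Gmnn by 0.80 (SE 0.15), at adjusted p = 0.0260 to 0.0329. Of 16 transcription regulators of this programme 1 rose, the atypical E2F factor E2f8, by 1.24 (SE 0.23, adjusted p = 0.0258). The list's median was 0.18, and the mitotic activators Foxm1, at 0.20, and Mybl2, at 0.46, did not pass. Among 15 G1 cyclins, kinases and Cdk inhibitors, with a median of 0.27, 1 rose: Wee1, the kinase that restrains Cdk1, by 0.70 (SE 0.15, adjusted p = 0.0425). In CD4-cre, limma called 0 genes on these 5 lists, with 5, 1, 9, 1 and 4 at an unadjusted p under 0.05 in the order given, of 36, 12, 40, 16 and 15 tested. Over all genes that share was 14.1% in either direction and 7.38% for genes that were higher. All of those on the 5 lists were higher, at 13.9%, 8.33%, 22.5%, 6.25% and 26.7% of each list. The share was near or below 7.38% for the APC/C and the transcription regulators. The medians of the 5 lists were 0.25, 0.08, 0.24, 0.12 and 0.16. Per array, the replication list had its highest mean on Foxp3-cre replicate 1 as well, at 8.47, against 7.92 and 7.98 on the other Foxp3-cre arrays.

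**Figure D5:**
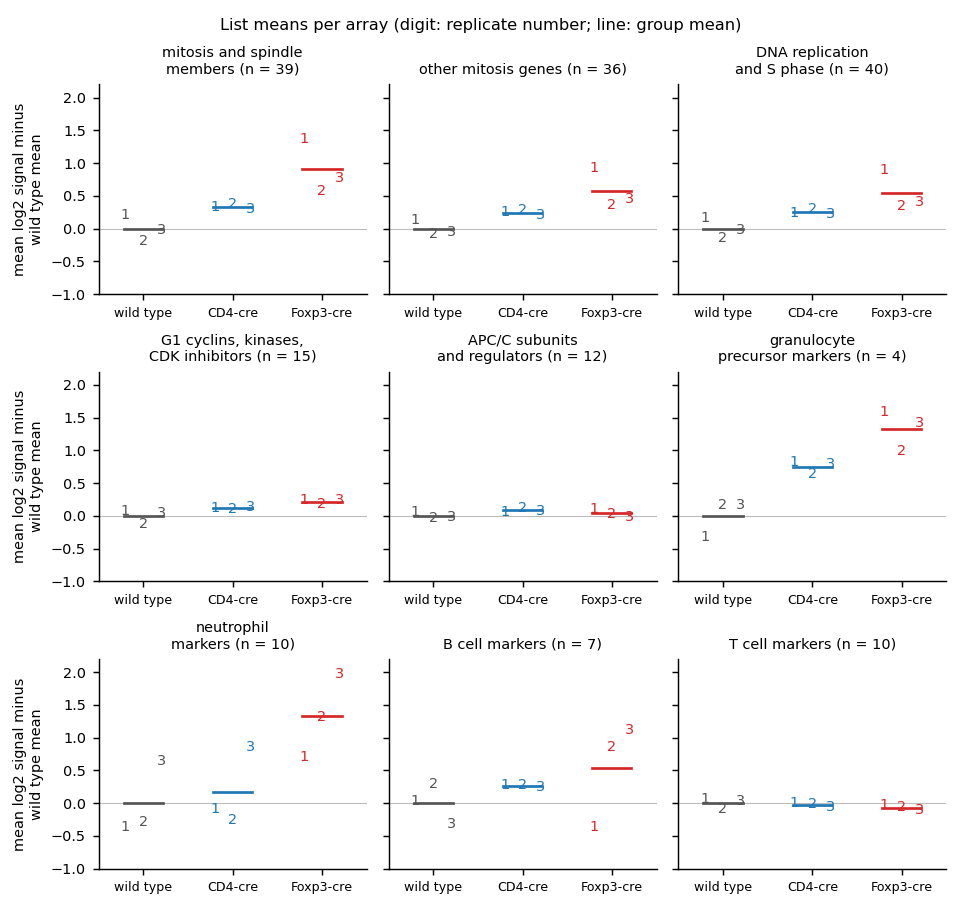
Mean log2 signal of 9 gene lists on each array minus the list's wild type mean; digits are replicate numbers and lines group means. The mitosis members, other mitosis genes and replication genes are highest on Foxp3-cre replicate 1, neutrophil and B cell markers are highest on Foxp3-cre replicate 3, and APC/C subunits and T cell markers are nearly level.

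Markers of some other cells moved with the Foxp3-cre arrays too. All 4 tested markers of granulocyte precursors, which divide, rose in Foxp3-cre: Mpo by 1.81, Prtn3 by 1.33, Elane by 1.14 and Ctsg by 1.05, while Ms4a3 was below the signal threshold. Their mean was 4.51 to 4.996 on the wild type arrays, 5.47 to 5.66 on CD4-cre and 6.42, 5.83 and 6.25 on Foxp3-cre, the same order of arrays within Foxp3-cre as the mitosis members. Within wild type the order differed, since replicate 1, the highest for the mitosis members, was the lowest for these markers. Of 10 neutrophil markers 4 rose, Camp, Ngp, Ltf and Lcn2, with list means of 8.24 to 9.24 in wild type, 8.34 to 9.44 with CD4-cre and 9.29, 9.92 and 10.57 with Foxp3-cre, where replicate 1 was lowest. In Foxp3-cre 9 of these 10 were higher than wild type and Csf3r was lower, at -0.33. Of 7 monocyte and macrophage markers 1 rose, C1qb. There 6 of the 7 were higher than wild type and Ccr2 was lower, at -0.42. The mean of that list ranged from 7.08 to 7.54 in wild type, from 6.81 to 7.99 in CD4-cre and from 7.68 to 8.98 in Foxp3-cre. Of 7 B cell markers 0 passed in limma. At an unadjusted p under 0.05 there were 3, of which 2 were higher and Ighm was lower, at -0.50. The means of the 7 were 7.77 to 8.39 in wild type, 8.34 to 8.38 with CD4-cre and 7.74, 8.96 and 9.21 with Foxp3-cre. The B lineage factors Pax5 and Ebf1 were below the signal threshold. Of 6 thymocyte markers Rag1, Rag2, Ptcra and Arpp21 were below it. Rag1 averaged 3.14 in wild type, 3.71 with CD4-cre and 4.90 with Foxp3-cre, where it read 3.79, 5.19 and 5.73, lowest on replicate 1. In the same order of genotypes, Rag2 averaged 2.61, 2.71 and 2.46, Ptcra 3.45, 3.50 and 3.42, and Arpp21 3.68, 4.26 and 3.99. The tested thymocyte markers, Dntt and Cd1d1, did not pass, at 0.33 and -0.08 in Foxp3-cre and 0.58 and 0.21 in CD4-cre. All 5 tested NK cell markers were lower in both knockouts, where Prf1 fell by 0.86 in Foxp3-cre (adjusted p = 0.0432) and Klrk1, at -0.90, did not pass. Of 4 plasma cell markers 0 passed in limma, 1 of them at an unadjusted p under 0.05, and Jchain had the largest difference, -0.60. Of 2 CD8 T cell and 5 dendritic cell markers 0 passed in limma, 0 of them at an unadjusted p under 0.05. Below the signal threshold were 8 of the 9 annotated erythroid markers. The part of these cells in the higher mitotic signals was not tested.

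Changes were also set beside promoter content, as a description. The 23 tested members with a CHR core in a window had a median change of 0.86 in Foxp3-cre, and 11 of them rose. The 8 tested members whose windows lacked it had a median of 0.88, and 5 of them rose. Among all tested genes with a window, the median change was 0.03 for the 855 genes with the CHR core and 0.00 for the 5258 without.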

How the data were processed

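The authors deposited log2 signals of every probe set on each array. RMA is the tool named in the submitters' processing notes, without a version. It subtracts background and normalizes between arrays, and so removes any change common to all genes. Of 22690 probe sets, 64 controls were left out, and 20380 carried 1 gene symbol in the platform annotation. Each of 12393 genes (12369 matched RefSeq by gene ID, and 0 symbols differed) was represented by its probe set with the highest mean.

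Genes at or above the 40th percentile of means entered 1 limma model of all 3 groups (version 3.58.1, R 4.3.3; lmFit and eBayes), where 6 degrees of freedom were residual and 3.37 came from the prior. All tests were two-sided, with Benjamini-Hochberg adjustment over 7436 genes, at 0.05. The script was tested on simulated data. With 3 arrays a group, an exact permutation test cannot pass 0.05, and none was used. The number of arrays limits the precision.

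The members, gene lists, markers and rules were chosen with earlier results of these data known. Array values are given for members called in any comparison. From each pathway list up to 4 called genes with the largest change are named, or the 2 largest where none was called, for Foxp3-cre against wild type. Incenp, Smc4 and Aurkb, the dim members, and Foxm1 and Mybl2 were added after their values were seen. Replicate numbers were checked for pairing by correlating deviations from group means between same-numbered arrays. For wild type and Foxp3-cre all 3 pairs were over 0.1 (0.20 to 0.25), so the blocked count is given beside that comparison. For the comparisons with CD4-cre 2 of 3 pairs were. The labels name no shared animal or batch. Alternatives changed the arrays, probe sets, filter, scaling and variance model.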

Additional observations from a re-analysis of the deposited data

How the results depend on the processing

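The count of 18 members that rose in Foxp3-cre against wild type depended on the arrays and on the variance model, whereas 0 members fell under any alternative run. No named gene changed sign where either value had passed the threshold. Among members that had not passed, the difference from wild type changed sign under at least 1 alternative for Smc4 in Foxp3-cre (-0.02, and 0.01 to 0.09 where it turned) and for 8 members in CD4-cre, all within 0.15 of 0 at first. Leaving out each array in turn gave 2 to 25, beside 0.417% to 3.05% of all genes, and medians of 0.66 to 1.08. The count was 11 with a 60th percentile filter, which left 21 members tested and where 1.63% of all genes rose. It was 0 with only the 2 groups of the comparison in the model, where 0.0269% of all genes rose and 37 members were at an unadjusted limma p under 0.05. It was 36 with array weights, where 8.74% of all genes rose. Leaving out wild type replicate 2 and Foxp3-cre replicate 1 together, chosen after seeing the data, gave 28, beside 4.41% of all genes. The median change was then 0.56. For CD4-cre against wild type the count of 0 became 0 to 1 on leaving out an array, beside 0.0403% to 0.753% of all genes. It was 12 with array weights (8.43% of all genes) and 4 without those 2 arrays (2.95%). For Foxp3-cre against CD4-cre it became 0 to 1 (0% to 0.336%), 15 (4.69%) and 4 (1.3%). The cause of these shifts was not tested. The other alternatives (other probe sets, no filter, robust variances, subtracted medians, quantile scaling) gave 14 to 23 for Foxp3-cre against wild type. Beside these, 0.767% to 2.17% of all genes rose.

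Deviations from group means of same-numbered arrays correlated at 0.20 to 0.25 for wild type and Foxp3-cre, at -0.01 to 0.23 for wild type and CD4-cre and at -0.03 to 0.49 for both knockouts. With the replicate number as a block the counts were 29, 0 and 1 for Foxp3-cre against wild type, CD4-cre against wild type and Foxp3-cre against CD4-cre, beside 2.89%, 0.242% and 1.08% of all genes.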
